A study of Mus musculus with 6 samples.

Results

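The 6 genes described here encode the fibrillins (Fbn1 and Fbn2) and the latent TGF-β binding proteins, or LTBPs (Ltbp1, Ltbp2, Ltbp3 and Ltbp4). They were chosen by gene name from a table of 55291 genes measured by bulk RNA sequencing of shaved dorsal skin. All 6 were found in the table and all 6 were among the 19971 genes kept by a filter on low counts. The skin came from 3 mice with the tight skin (TSK) mutation and 3 littermates without it (WT, wild type), and each library came from a different mouse. All mice were C57BL/6, 6 to 8 weeks old by the sample labels. No mouse received a treatment according to the labels. The TSK mutation, an inherited duplication inside Fbn1, was kept by crossing carriers back to C57BL/6, and WT mice lack it. Mice with the duplication on both alleles die before birth, so TSK mice carry it on 1 allele, although the labels do not name the zygosity. The labels (female) and the methods of the study (male) give different sexes. The mutation is in the germ line, so it is present in every cell type of the skin.

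Fibrillins are long, cysteine-rich glycoproteins that join end to end into microfibrils, the fine threads that give skin, vessels and ligaments their elasticity and serve as the scaffold for elastin. LTBPs share the repeated domains of the fibrillins, and most of them hold latent TGF-β, the inactive form of the growth factor, and attach it to microfibrils and fibronectin. In this way the same fibres bear load and store a signal for fibroblasts. Changes in fibrillin 1 cause Marfan syndrome, stiff skin syndrome and other connective tissue disorders in people.

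Library totals were 17561453 to 19219814 counts, and the totals of the groups overlapped. Skin of mice carries a thin muscle beneath it, and the libraries differed in how much RNA of each tissue they held. Summed CPM (the count divided by the library total, on a scale of 1000000) over 15 adult skeletal muscle genes ran from 169500 to 246600 in WT libraries and from 146400 to 168000 in TSK libraries. Over 10 fibroblast genes they ran from 571.5 to 625.2 in WT libraries and from 913.7 to 1480 in TSK libraries. Keratinocyte, fibroblast and adipocyte markers, which skin should hold, were present in every library, and no gene of any cell type list that was in the table was at 0 in all libraries. TMM, a scaling that limits the weight of a few abundant genes, was used for the main tests of single genes below. Scaling by library size alone moved the middle of the log2 fold changes over the whole set of tested genes from -0.03 to 0.25. Results of the members and of the microfibril, TGF-β and BMP lists that turn on this choice are given under both. Calls on the cell type lists are given with TMM only, and summed CPM is without TMM.

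Fbn1 carries the TSK mutation and is described first. The gene is on chromosome 2 (mm10, 125300594 to 125507993, minus strand), and its longest coding transcript has 65 exons and 2873 codons. The duplicated block runs from coding exon 17 to coding exon 40, which in the reference spans 31165 bases (chromosome 2, 125342800 to 125373964). These 24 exons hold 2952 bases, or 984 codons with no base left over, so the longer transcript keeps its reading frame. The edges of the block are printed here because they are where the mutant transcript departs from the normal one. In the mutant, the end of exon 40 is followed by a second copy of exon 17, and the 30 bases in capitals at each edge are those that meet there. Both are read 5′ to 3′ from the transcripts of GENCODE M21 on mm10, minus strand, with exon 40 at chr2:125342800-125342922 and exon 17 at chr2:125373911-125373964.
Fbn1 exon 40, end of the block: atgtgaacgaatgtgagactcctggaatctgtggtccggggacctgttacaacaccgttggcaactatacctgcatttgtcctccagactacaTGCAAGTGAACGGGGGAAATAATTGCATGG
Fbn1 exon 17, start of the block: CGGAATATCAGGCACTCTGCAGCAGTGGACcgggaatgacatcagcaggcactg

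The Fbn1 count was 4683.9, 5420.1 and 4765.1 in the WT libraries 1 to 3 and 27971.1, 43910.5 and 37855.1 in the TSK libraries 1 to 3. On the TMM-scaled CPM these were 260.6, 351.2 and 296.0 in WT and 1450, 2053 and 1781 in TSK. The lowest TSK library lay well above the highest WT library, and TSK 2 was the highest of all. The level rose 5.82-fold (log2 fold change 2.54, SE 0.22, adjusted p = 0.003274, edgeR quasi-likelihood test with Benjamini-Hochberg adjustment over all tested genes), with a 95% interval of the fold from 4.09 to 8.28. Bulk RNA cannot tell more cells that use a gene from more RNA per cell, for Fbn1 or for any gene below.

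Reads from both copies of the duplicated block count towards Fbn1. The block makes up 24.66% of the longest transcript (ENSMUST00000103234, 11971 bases) and 29.98% of a shorter one (ENSMUST00000028633, 9847 bases). If the number of transcripts did not differ, the added length alone would give a count 1.123 or 1.15 times as high with 1 of 2 alleles duplicated. The measured fold was 5.82, and counts by exon were not analysed here.

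Fbn2, the fibrillin used mainly by embryonic tissue, lies on chromosome 18 (58008623 to 58210487, minus strand, 65 exons, 2907 codons). It had the lowest mean level of the members in both genotypes, with 71.0 to 125.1 counts in the WT libraries and 229.3 to 342.7 in the TSK libraries. The TMM-scaled CPM were 4.34, 4.60 and 7.77 in the WT mice 1 to 3 and 17.8, 10.7 and 14.02 in TSK 1 to 3. All 3 TSK libraries lay above all 3 WT libraries, but the gap between WT 3 and TSK 2 was narrow. Fbn2 rose 2.54-fold (log2 fold change 1.35, SE 0.27, edgeR adjusted p = 0.0359, 95% interval of the fold 1.65 to 3.91). Its call rested on nearly every library. The adjusted p was 0.05434 without WT 1, 0.1076 without WT 2, 0.05606 without WT 3, 0.0833 without TSK 1 and 0.08154 without TSK 3, and 0.03689 without TSK 2, with log2 fold changes from 1.15 to 1.67.

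Ltbp1, which ties latent TGF-β to fibronectin and fibrillin, lies on chromosome 17 (75005568 to 75392512, plus strand, 1713 codons). Its TMM-scaled CPM were 50.2, 44.5 and 42.0 in the WT mice 1 to 3 and 55.3, 60.8 and 68.6 in TSK 1 to 3. The groups did not overlap, and WT 1 and TSK 1 were the closest pair. Ltbp1 had a log2 fold change of 0.43 (SE 0.13, 95% interval 0.13 to 0.73), which did not pass the test (edgeR adjusted p = 0.1115).

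Ltbp2, the member of the family that does not bind latent TGF-β, lies on chromosome 12 (84783212 to 84876532, minus strand, 1809 codons). The TMM-scaled CPM were 20.9, 19.8 and 17.7 in the WT mice 1 to 3 and 16.5, 18.4 and 16.4 in TSK 1 to 3. The groups overlapped, since TSK 2 lay above WT 3. The log2 fold change was -0.19 (SE 0.13, 95% interval -0.47 to 0.10, edgeR adjusted p = 0.4498) and turned to 0.08 with scaling by library size alone.

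Ltbp3, an LTBP with known roles in bone and teeth, lies on chromosome 19 (5740904 to 5758532, plus strand, 1253 codons). Its TMM-scaled CPM were 68.8, 84.1 and 75.7 in the WT mice 1 to 3 and 85.0, 109.8 and 94.0 in TSK 1 to 3. The groups did not overlap, though WT 2 and TSK 1 nearly touched. For Ltbp3 the log2 fold change was 0.34 (SE 0.14, 95% interval 0.01 to 0.66, edgeR adjusted p = 0.2363).

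Ltbp4, which helps fibulin-5 and elastin assemble into elastic fibres, lies on chromosome 7 (27305136 to 27337692, minus strand, 1666 codons). The TMM-scaled CPM were 152.1, 211.1 and 161.7 in the WT mice 1 to 3 and 228.4, 252.4 and 221.3 in TSK 1 to 3. WT 2 was the highest WT library and came close to the TSK range without entering it. For Ltbp4 the log2 fold change was 0.42 (SE 0.16, 95% interval 0.05 to 0.79, edgeR adjusted p = 0.2015).

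**Figure D1:**
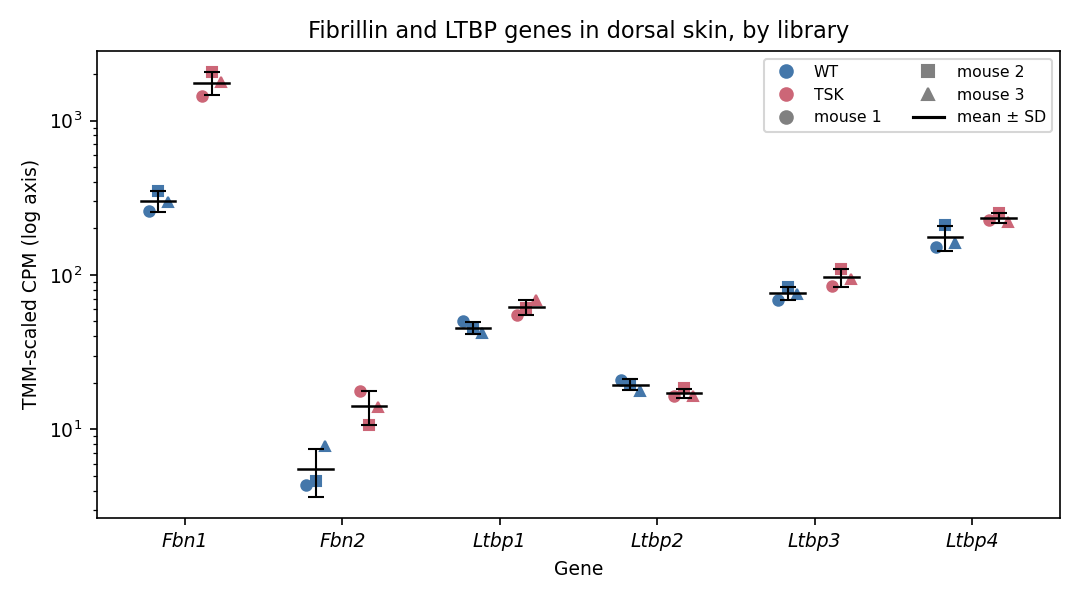
TMM-scaled CPM of the 6 genes (log axis) in the 3 WT and 3 TSK libraries, 1 point per mouse, with the mean and SD of each group as bars. Fbn1 shows the widest gap (302.6 ± 45.64 against 1761 ± 302.0), and Ltbp2 is the gene whose groups overlap (19.5 ± 1.63 against 17.1 ± 1.12).

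In all, 2 of the 6 genes were called higher in TSK at an adjusted p below 0.05, against 2.71% of all tested genes, and none of the 6 was called lower, against 0.681%. At the stricter thresholds of the study, an adjusted p below 0.01 and a fold above 2.5, 1 of the 6 (Fbn1) passed, against 0.255% of all tested genes. This strict call was lost without WT 2 (adjusted p = 0.01151), WT 3 (0.03902) or TSK 3 (0.01215), where Fbn1 still passed 0.05 in edgeR. In 5 of the 6 genes the TSK libraries lay above the WT libraries without overlap, as in 14.1% of all tested genes, and in no member did they lie below without overlap, as in 10.6%. The median log2 fold change of the members was 0.43, against -0.03 for all tested genes.

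The calls on Ltbp1, Ltbp3 and Ltbp4 turned on the scaling. With library size alone, 5 of the 6 genes were called higher in edgeR, against 8.44% of all tested genes. On the log2 scale the 3 LTBPs were then at 0.70 (Ltbp1, adjusted p = 0.03878), 0.62 (Ltbp3, adjusted p = 0.03252) and 0.71 (Ltbp4, adjusted p = 0.02037). DESeq2 with its own scaling called Fbn1 and Fbn2, against 5.5% of the genes to which it gave an adjusted p. In DESeq2, unlike in edgeR with TMM, Fbn2 also passed the strict thresholds, with an adjusted p of 0.0003469.

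**Figure D2:**
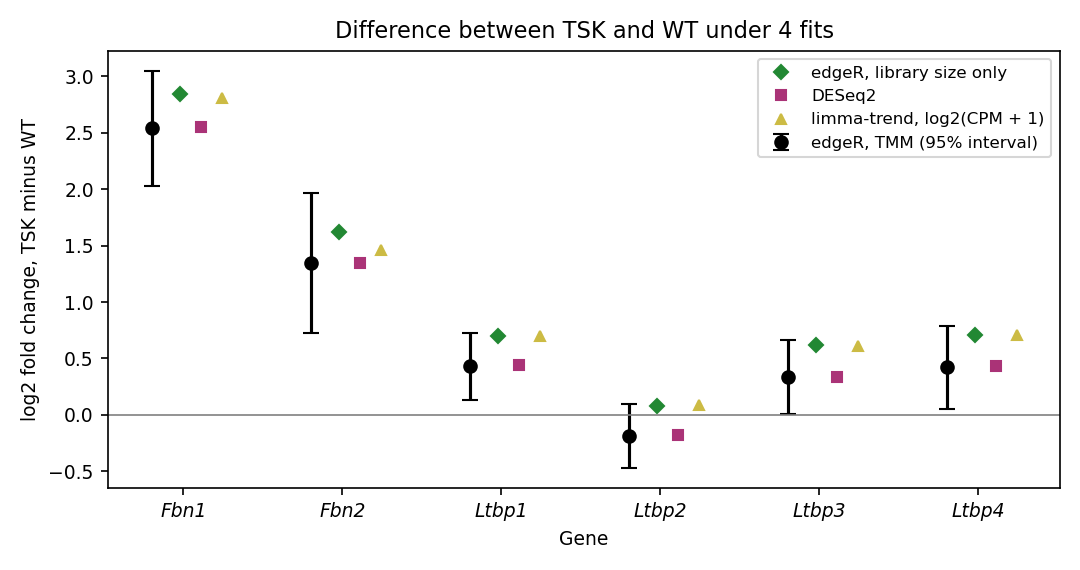
The log2 fold change (TSK minus WT) of each gene in edgeR with TMM, with its 95% interval, beside edgeR with library size alone, DESeq2 and limma-trend on log2(CPM + 1). Library size alone and limma place each gene higher than TMM does, and for Ltbp2 they move the value across 0, from -0.19 to 0.08 and 0.09.

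Reads of these genes could be told apart from those of other genes on the same strand. No stretch of 50 bases, the length of a read, of the longest coding transcript of a member matched a transcript of another gene on the same strand. On the opposite strand, Fbn1 shared 2393 of 11922 such stretches with Gm9913, an overlapping gene that had 0 to 3 counts in WT and 9 to 21 in TSK. Ltbp2 shared 715 of 6720 with D030025P21Rik (2 to 9 counts in a library). Fbn2 shared 80 of 10992 with Gm26507, which has no value here. The library kit marks strand, but whether the counting used it is not given in the sources used here, so in these stretches the partners are uncertain. Ltbp1 and Ltbp4 shared none, though the pseudogene Gm6276 lies inside Ltbp1 on the same strand with 2 to 7.004 counts in a library.

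To set the members beside each other, the deposited CPM was divided by the length of all exons of a gene, which gives CPM per kilobase. In WT skin the order by this level was Ltbp4 (24.4 ± 2.36, SD, n = 3), Fbn1 (22.5 ± 1.17), Ltbp3 (7.59 ± 0.191), Ltbp1 (3.90 ± 0.786), Ltbp2 (2.17 ± 0.386) and Fbn2 (0.381 ± 0.123). Ltbp4 and Fbn1 overlapped, at 22.1 to 26.8 and 21.6 to 23.8 CPM per kilobase, while the other neighbours did not. The exons come to 6463 bases for Ltbp4 and 12128 for Fbn1, against 5386 and 11971 in the longest coding transcript. A shorter length gives a higher level, so this overlap holds for the exon lengths only, and levels by transcript length are not given. In TSK skin Fbn1 stood first at 160.2 ± 31.1 CPM per kilobase, a level that includes reads of the duplicated block. Ltbp4 followed (39.8 ± 3.18), then Ltbp3 (11.7 ± 1.77), Ltbp1 (6.35 ± 0.871), Ltbp2 (2.30 ± 0.186) and Fbn2 (1.18 ± 0.263), and no neighbours overlapped. Among the 5 genes other than Fbn1 the order was the same in both genotypes.

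Shares within the family compare its members inside a library and do not depend on scaling between libraries. With 3 mice against 3, the smallest p that an exact permutation test can give is 0.1. Fbn1 took 98.4%, 98.7% and 97.4% of the fibrillin counts in the WT mice 1 to 3 and 98.8%, 99.5% and 99.2% in TSK 1 to 3. The TSK shares were all above the WT shares, by 0.994 percentage points on average (exact permutation test, two-sided, p = 0.1), or by 0.631 without WT 3. Fbn1 was thus nearly the whole of the fibrillin signal in both genotypes, and Fbn2 made up the rest.

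Among the 4 LTBPs, Ltbp4 took the largest share of the counts in every library. Its share was 52.1%, 58.7% and 54.4% in WT and 59.3%, 57.2% and 55.3% in TSK, and the groups overlapped (difference 2.17 percentage points, exact permutation p = 0.4, or 0.670 without WT 1, 1.14 without TSK 1 and 3.999 without WT 2). Ltbp3 took 23.6%, 23.4% and 25.5% in WT and 22.1%, 24.9% and 23.5% in TSK (exact permutation p = 0.5). The Ltbp3 share differed by less than its SD within either genotype, as did that of Ltbp1, which was 12.4% to 17.2% in WT and 13.8% to 17.1% in TSK (exact permutation p = 0.8). Ltbp2 stood apart. It held 7.16%, 5.50% and 5.95% of the LTBP counts in WT and 4.28%, 4.17% and 4.09% in TSK, so every TSK library lay below every WT library. The mean share was 6.20% ± 0.857 in WT and 4.18% ± 0.0918 in TSK (SD, n = 3), and the exact permutation p was 0.1, or 0.4 after Benjamini-Hochberg adjustment over the 4 shares. No share could pass 0.05 in a design of this size.

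**Figure D3:**
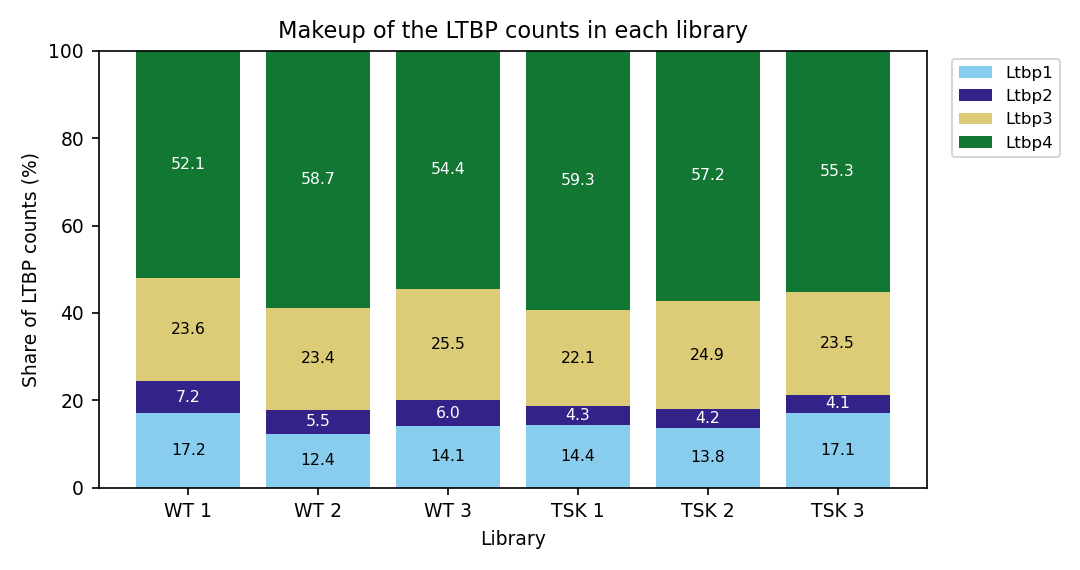
Share (percent) of the summed Ltbp1, Ltbp2, Ltbp3 and Ltbp4 counts that each gene took in each of the 6 libraries, as stacked bars. The Ltbp2 band is narrower in the TSK libraries (4.09% to 4.28%) than in the WT libraries (5.50% to 7.16%), while the other bands overlap between genotypes.

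The ratio of each fibrillin to the summed LTBP counts was added after the data had been seen. The log2 ratio of Fbn1 to the LTBPs was -0.16, -0.03 and -0.01 in the WT mice 1 to 3 and 1.91, 2.22 and 2.15 in TSK 1 to 3. In WT skin the Fbn1 count was thus close to that of the 4 LTBPs together, and in TSK skin it was far above it. The mean log2 ratio was -0.07 in WT and 2.10 in TSK, a difference of 2.16 with no overlap (exact permutation p = 0.1). For Fbn2 the log2 ratio was -6.07, -6.29 and -5.26 in WT and -4.44, -5.36 and -4.83 in TSK. TSK 2 lay below WT 3 here, so the groups overlapped (difference of means 0.99, exact permutation p = 0.2).

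Fibrillins and LTBPs are made largely by fibroblasts, so the members were also set against a list of 10 fibroblast genes (Pdgfra, Dcn, Lum, Dpt, Cd34, Vim, Pdpn, Clec3b, Ogn and Mgp). All 10 had a positive log2 fold change, with a median of 0.83, and 2 of them, Dpt and Cd34, were called higher in edgeR. Of all tested genes 47.0% had a positive value and 2.71% were called higher. The value compared was the log2 CPM of a member minus the mean log2 CPM of the list in the same library. Fbn1 stood at 3.07, 2.98 and 2.88 in the WT mice 1 to 3 and at 4.80, 4.93 and 4.42 in TSK 1 to 3. It was above the list in all libraries and farther above it in TSK, by 1.74 on the log2 scale (exact permutation p = 0.1, adjusted over the 6 genes 0.2). Fbn2 was below the list at -2.80, -3.25 and -2.36 in WT and at -1.54, -2.64 and -2.56 in TSK. For Fbn2 the groups overlapped and the difference of 0.56 came mostly from TSK 1 (exact permutation p = 0.4, 0.20 on the log2 scale without TSK 1).

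Relative to these fibroblast genes the LTBPs had negative differences between TSK and WT. The list itself was higher in TSK, with a median log2 fold change of 0.83 against -0.03 for all tested genes. A gene with no difference between the genotypes would thus also have a negative value here. The share of all tested genes that lay below without overlap on this measure was not counted. Ltbp2 stood at -0.56, -1.17 and -1.18 in WT and at -1.65, -1.87 and -2.34 in TSK, a difference of -0.98 with no overlap (exact permutation p = 0.1, adjusted 0.2). Ltbp3 stood at 1.15, 0.91 and 0.91 in WT and at 0.71, 0.71 and 0.18 in TSK, a difference of -0.46 with no overlap (exact permutation p = 0.1, adjusted 0.2). TSK 3, the library with the highest sum of fibroblast genes, had the lowest value for every LTBP. Ltbp1 (difference -0.36, exact permutation p = 0.3) and Ltbp4 (difference -0.36, exact permutation p = 0.2) overlapped between the groups. Single libraries weighed on these values: the difference was -0.14 for Ltbp1 without WT 1, and -0.16 for Ltbp4 and -0.28 for Ltbp3 without TSK 3. The sign for Ltbp1, Ltbp3 and Ltbp4 thus depended on whether they were read against all genes or against fibroblast genes, while Fbn1 had a positive difference against both.

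**Figure D4:**
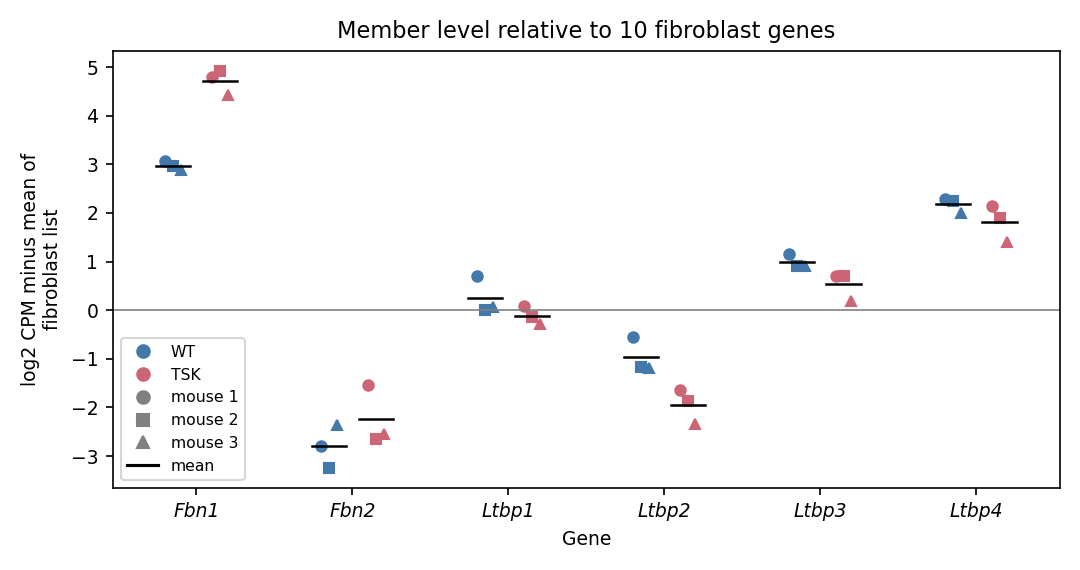
Level of each gene relative to 10 fibroblast genes of the same library (log2 CPM minus the mean log2 CPM of the list), 1 point per mouse, with the group mean as a line. Fbn1 is farther above the fibroblast genes in TSK (4.42 to 4.93) than in WT (2.88 to 3.07), and Ltbp2 and Ltbp3 have every TSK point below every WT point. The fibroblast genes themselves had a median log2 fold change of 0.83.

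Microfibrils are built with partner proteins, and a list of 25 of them was examined beside the members. Of these, 10 were called higher in TSK and 0 lower, 24 had a positive log2 fold change, and the median was 0.79. Over all tested genes 2.71% were called higher, 0.681% lower, and 47.0% had a positive value. The partners with the largest called change were Mfap5 and Mfap2, small glycoproteins that sit on microfibrils, and Emilin2 and Efemp1, which bind elastic fibres. Mfap5 rose by 2.61 on the log2 scale (edgeR adjusted p = 0.003274), from a mean of 11.9 ± 1.27 CPM in WT to 89.1 ± 22.96 CPM in TSK. Emilin2 rose by 2.23 (adjusted p = 0.006055), Efemp1 by 2.20 (adjusted p = 0.003274) and Mfap2 by 1.94 (adjusted p = 0.0107) on the log2 scale. The other called partners were Eln, Fbln5, Efemp2, Loxl1, Fn1 and Adamts10, which include elastin itself, the enzyme Loxl1 that crosslinks it, and fibronectin. Hspg2 (perlecan) and Fbln2 (fibulin-2), the most abundant partners that were not called, stood at 0.43 (adjusted p = 0.2752) and 1.01 (adjusted p = 0.09404) on the same scale. Calls over all genes changed when 1 library was left out. They fell from 542 of 19971 higher to 45 of 20665 without WT 3, 322 of 20317 without TSK 3 and 226 of 20656 without WT 2. They were 433 of 20518 without TSK 1 and 321 of 20508 without TSK 2, and rose to 713 of 20546 without WT 1. The count of 10 partners was then 3 without WT 3 and 6 without TSK 3, and was 16 with library size alone, where 8.44% of all tested genes were called higher.

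LTBPs hold TGF-β in a latent complex, from which integrins, proteases and thrombospondin can release it. Of 18 genes of this complex, its activation and its receptors, 4 were called higher and 0 lower, against 2.71% and 0.681% of all tested genes. Their median was 0.50 on the log2 scale. The 3 ligands themselves were not called, with log2 fold changes of 0.47 for Tgfb1 (edgeR adjusted p = 0.2111), 0.49 for Tgfb2 (adjusted p = 0.1606) and -0.09 for Tgfb3 (adjusted p = 0.7095). The called genes were Mmp14, a membrane-bound protease (log2 fold change 1.26, adjusted p = 0.03693), and Bmp1, a protease that trims procollagens and cleaves Ltbp1 (1.23, adjusted p = 0.01709). The others were Itgb3, an integrin chain that pairs with Itgav (1.12, adjusted p = 0.01709), and the receptor Tgfbr2 (0.94, adjusted p = 0.04201). The co-receptor Tgfbr3 (0.91, adjusted p = 0.0568) and Thbs1, thrombospondin-1 (0.65, adjusted p = 0.3377), had the highest mean CPM over the 6 libraries among the genes of the list that were not called. Itgav had a log2 fold change of -0.30 (adjusted p = 0.2425), with TSK below WT without overlap on TMM-scaled CPM, as in 10.6% of all tested genes, but with overlap on the deposited CPM. The count of 4 was 2 without WT 2 or TSK 3 and 0 without WT 3, where calls fell over all genes as given above, and it was 10 with library size alone, again beside 8.44% of all tested genes.

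BMPs and GDFs are relatives of TGF-β, several of which bind the fibrillins. Of 9 listed, 7 were tested (Bmp10 and Gdf5 were too low), 1 was called higher and 1 lower, against 2.71% and 0.681% of all tested genes, and the median log2 fold change was -0.30. Mstn, the muscle growth inhibitor myostatin, had a mean of 306.8 ± 9.777 CPM in WT and 120.7 ± 36.5 CPM in TSK, and it fell by 1.62 on the log2 scale (edgeR adjusted p = 0.01475). Muscle genes moved beside it. Of 9 developing muscle genes 7 were called lower, against 0.681% of all tested genes, with a median of -1.92 on the log2 scale and summed CPM of 147.3 to 292.3 in WT libraries against 51.95 to 61.16 in TSK libraries. Of 15 adult skeletal muscle genes edgeR called 0, with a median of -0.77, and at an unadjusted p below 0.05 there were 9 lower and 1 higher, against 7.9% and 12.1% of all tested genes. The part of muscle content in the Mstn difference was not tested. Bmp6 was called higher (0.98, adjusted p = 0.03942), and Bmp2 (-0.30, adjusted p = 0.4803) and Bmp7 (0.49, adjusted p = 0.274) were not called. The number called was 0 without WT 3 and 1 without any other single library.

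Genes that TGF-β is known to switch on gave 0 of 12 calls in edgeR, although 10 of the 12 had a positive log2 fold change and the median was 0.58. At an unadjusted p below 0.05, 7 of the 12 were higher and 0 lower, against 12.1% and 7.9% of all tested genes. DESeq2 called 6, where 5.5% of all genes with an adjusted p were called higher. Col1a1 and Col3a1, fibrillar collagens of the dermis and the most abundant of these genes, were not called, at 1.84 (edgeR adjusted p = 0.06538) and 1.24 (adjusted p = 0.119) on the log2 scale. With library size alone 8 were called, beside 8.44% of all tested genes.

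**Figure D5:**
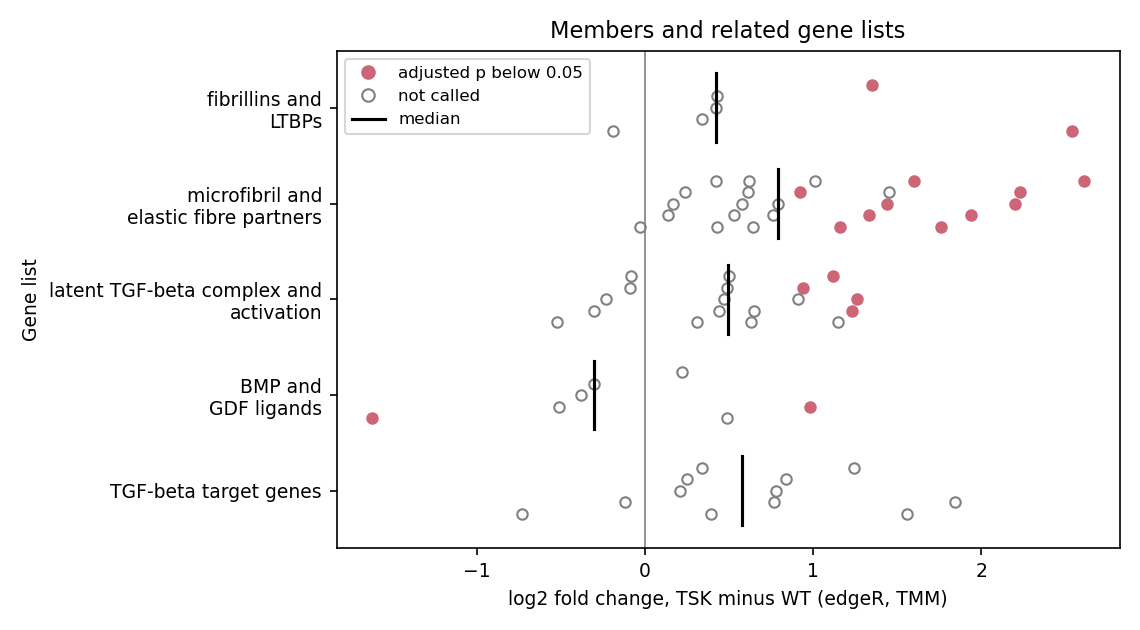
The log2 fold change (TSK minus WT, edgeR with TMM) of every tested gene of the fibrillins and LTBPs and of 4 related lists, 1 point per gene, filled where the adjusted p is below 0.05, with the median of each list as a line. The medians are 0.43, 0.79, 0.50, -0.30 and 0.58 from top to bottom.

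Lists for other cell types of the skin held calls as well. Of the endothelial list 2 of 8 genes were called higher (median 0.72 on the log2 scale), of the smooth muscle and pericyte list 2 of 7 (0.79), and of the adipocyte list 3 of 10 (2.64), against 2.71% of all tested genes. TSK 2, the library with the highest Fbn1, stood apart in adipocyte genes, with 247.3 CPM of Adipoq (adiponectin) against 47.8 in TSK 1 and 33.3 in TSK 3, and 8.36 to 12.3 in WT. Without TSK 2 the adipocyte median was 1.32 with 6 of 10 genes called, a setting chosen for this list after seeing the data, in which 321 of 20508 genes were called higher. Fbn1 without TSK 2 had a log2 fold change of 2.41 (edgeR adjusted p = 0.007325). Of the differentiated keratinocyte list 2 of 8 were called higher (0.51) and of the hair follicle list 3 of 7 tested (1.48). None was called of the 7 basal keratinocyte (-0.40), 9 macrophage (0.98) and 5 Schwann cell genes (0.54) by edgeR, and at an unadjusted p below 0.05 there were 7 macrophage and 2 Schwann cell genes higher and 1 basal keratinocyte gene lower, against 12.1% higher and 7.9% lower of all tested genes. Vessel walls hold elastic fibres too, and the summed CPM of their lists was higher in TSK libraries. For the endothelial list it was 157.7 to 184.0 in WT libraries against 279.0 to 460.4 in TSK libraries. For the smooth muscle and pericyte list it was 249.9 to 303.8 against 442.3 to 627.5. The part of these cell types in the differences of the members was not tested.

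Finally, the genes whose profile over the 6 libraries was most like that of each member were listed, by the root mean square difference of log2 CPM after each gene was centred on its own mean, among 12016 genes with a mean of at least 5 CPM. The profile includes the genotype difference, so it is a description. Closest to Fbn1 were Mfap5 (0.118), Scara3 (0.190), Dpp4 (0.198), Emilin2 (0.257) and Hp (0.267), of which Mfap5 and Emilin2 are microfibril partners. Fbn2 stood at place 226 from Fbn1, with a difference of 0.749, and Ltbp4, Ltbp1, Ltbp3 and Ltbp2 at places 1339, 1462, 1727 and 8430. Closest to Fbn2 were Ftl1-ps1 (0.187), Zic1 (0.201) and Alox12b (0.212), of which Ftl1-ps1 is named as a pseudogene, so its counts are uncertain.

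The LTBPs had flatter profiles and close neighbours among genes outside the matrix. Sbf2 (0.033), Swap70 (0.035) and Samd4b (0.041) were closest to Ltbp1, and Zbtb37 (0.025), Dzip3 (0.032) and Tasor (0.039) to Ltbp2. For Ltbp3 they were Wwc2 (0.022), Unc50 (0.033) and Hipk1 (0.046), and for Ltbp4 they were Rab6b (0.065) and Katnal1 (0.080). Within the family, Ltbp3 and Ltbp4 were the closest pair, with a difference of 0.111, which put Ltbp3 at place 20 from Ltbp4 and Ltbp4 at place 104 from Ltbp3.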

How the data were processed

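Stranded libraries of RNA depleted of ribosomal RNA were sequenced as single reads of 50 bases. According to the submitters' processing notes and the methods of the study, the authors demultiplexed with bcl2fastq 2.19.1.403, aligned with STAR to mm10 and quantified genes in Partek 11.0 with Ensembl annotation. The strand setting is not given in the sources used here. The authors deposited a table of estimated counts per gene, which is named as raw although only 43.3% to 45.4% of its values above 0 were whole numbers (within 0.001), and a table of CPM, which is each count scaled to 1000000 per library. The planned count test was therefore run on the estimated counts after rounding. Every column belonged to 1 of the 6 mice, and 0 columns were left over.

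The main test was edgeR 4.0.16 (R 4.3.3), quasi-likelihood, with TMM scaling, filterByExpr and genotype as the only term. The 19971 genes kept were adjusted together by the Benjamini-Hochberg method, and calls were made below 0.05, or below 0.01 with a fold above 2.5. Within-library values used exact permutation tests over mice, two-sided (scipy 1.17.1), with log2 CPM at a prior count of 2. DESeq2 1.42.0 and limma 3.58.1, the latter on log2(CPM + 1) and log2(CPM + 0.1), were alternatives, as were other scalings, other filters, removal of muscle and ribosomal RNA genes, leaving out each library in turn and a replicate block. The scripts were tested on simulated data. The members, the gene lists and the tests were chosen with earlier results of these data known.

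Besides the members, the genes named were those that overlap them, from each pathway list up to 4 called genes with the largest change and up to 2 others with the highest CPM, and the 3 genes (5 for Fbn1) with the closest profile. Exceptions are the TGF-β ligands, Itgav, Adipoq and the remaining called microfibril partners, which were named after their values were seen, and some genes that the rule names are not reported here. Krt85 and Krt73 of the hair follicle list were not tested. Coordinates of the members in the deposited table matched GENCODE M21 (mm10), from which lengths and exon sequences were taken. Libraries of a genotype differed by at least 8.02 in chi-square per degree of freedom, so none was a repeat of another. P-values rest on these 3 mice per genotype. The edgeR test moderates the spread between mice over all tested genes, and the exact tests relabel the mice.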

Additional observations from a re-analysis of the deposited data

How the results depend on the processing

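The direction of Fbn1 and Fbn2 held under every alternative run, with log2 fold changes of 2.41 to 2.84 for Fbn1, and Fbn1 passed 0.05 in each. Of the 6 fibrillin and LTBP genes 2 were called with TMM, but 5 with library size alone and 5 with limma on log2(CPM + 1) or log2(CPM + 0.1), both of which use CPM without TMM and also another test. The log2 fold changes of Ltbp1, Ltbp3 and Ltbp4 were then 0.70, 0.62 and 0.71 with library size alone, 0.70, 0.61 and 0.71 with limma at a pseudocount of 1, and 0.71, 0.61 and 0.71 at 0.1, all past 0.05. Ltbp2 turned from -0.19 to 0.08 with library size alone and to 0.09 with limma at either pseudocount, past 0.05 in none. At the strict thresholds 1 member passed, and 2 passed with library size alone, DESeq2, limma at either pseudocount and no filter on low counts. Over all genes the strict calls higher in TSK went from 51 to 290, 310, 269 (limma at 1), 314 (limma at 0.1) and 295 in these settings.

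Of the lists, microfibril partners went from 10 calls to 16 with library size alone and with limma at 0.1. They went to 15 with limma at 1, 14 with DESeq2, 13 with the replicate block and 12 with no filter. The latent TGF-β list went from 4 to 10 with library size alone and with limma at either pseudocount. It went to 6 with DESeq2, no filter and the replicate block, and to 5 with the scaling of DESeq2 in edgeR. TGF-β target genes went from 0 to 8 with library size alone and with limma at either pseudocount. They went to 6 with DESeq2 and with no filter, and to 3 with the replicate block. Over all genes the calls higher in TSK went from 542 of 19971 to 1685 with library size alone, and to 1771 and 1761 with limma at 1 and 0.1. They went to 1135 of 20629 with DESeq2 and 1040 of 34809 with no filter. With the replicate block they were 665, and with the scaling of DESeq2 in edgeR 579. Where scaling changes, the median of all genes moves as well, and otherwise the cause was not tested.

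Without 1 library, member calls were 1 to 2 and strict calls 0 to 1, microfibril partners 3 to 10, latent TGF-β genes 0 to 4, BMP and GDF ligands 0 to 1 and TGF-β target genes 0 to 1. Without WT 3, edgeR called 45 of 20665 genes higher. The log2 fold change of Fbn2 was 1.15 to 1.67 and passed 0.05 only without TSK 2. The Ltbp1 share of LTBP counts differed by -0.569 to 1.85 percentage points, the Ltbp3 share by -1.38 to 0.0302 and the Ltbp4 share by 0.670 to 3.999, with a change of sign without WT 2 or TSK 3 for Ltbp1 and without TSK 1 for Ltbp3.

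Replicate numbers are shared between the genotypes, but the deviations of same-numbered mice from their group means correlated at 0.0112, 0.167 and -0.0938, and 2 of 6 libraries correlated best with their own number, so the numbers were not taken to pair the mice. With the replicate block edgeR called 665 genes higher and 129 lower, against 542 and 136 without it. In that fit Fbn1 had a log2 fold change of 2.54 (edgeR adjusted p = 0.004123) and Fbn2 of 1.36 (adjusted p = 0.0278), and no call of a member changed. Dividing counts by exon length, or using the median of the fibroblast list, changed the sign of no share or relative level. With that median the difference for Ltbp3 was -0.55 and its groups overlapped (exact permutation p = 0.2, against 0.1 with the mean of the list). With 3 mice per genotype no exact test could pass 0.05, and Fbn2, at 71.0 to 342.7 counts per library, has the widest interval on the log2 scale.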
